A study of Mus musculus with 18 samples.

Results

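The conjugation enzymes of drug metabolism are the transferases that couple glutathione, glucuronic acid or sulfate to drugs and to the body's own compounds. They were taken here as the glutathione S-transferases (GST, cytosolic and microsomal), the UDP-glucuronosyltransferases (UGT) and the cytosolic sulfotransferases (SULT), chosen by gene symbol and kept where a gene had at least 10 counts in 3 libraries of a table. Of 65 matching symbols, 46 were kept: 24 of 25 GST, 16 of 21 UGT and 6 of 19 SULT symbols. The rule compared no groups, although a gene can meet the minimum through the group where it is high. The count minimum was met in all 3 deposited tables by 38 of the 46. Just inside the minimum stood Ugt1a2, Gsto2 and Sult2b1, whose third-highest count in their best table was 10, 13 and 14. Just outside it stood Sult4a1 and Sult1e1, with 8 and 5.

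Total RNA was sequenced from liver Kupffer cells, labelled as macrophages, of wild-type C57BL/6J mice. Each of 6 groups had 3 libraries. A course with acetaminophen held 3 h against 0 h in one table and 12 h against 6 h in another, and a separate table held acetaminophen-treated mice that received an antibody to CD41 (anti-CD41) against such mice that received IgG. CD41 is a platelet integrin subunit, and such antibodies are used to deplete platelets. For 0 h the columns carry the name PBS, although the treatment label there also says acetaminophen, and the antibody groups carry no time. The cells came from collagenase perfusion, a density gradient and 10 min of adherence, so they were enriched and not sorted. The labels do not say that replicates were separate animals, and p-values measure only the spread between these samples.

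Acetaminophen is cleared mainly by sulfation and glucuronidation of its phenol group in hepatocytes. Its oxidation product NAPQI is trapped by glutathione, with or without the help of a GST, and overdose injures hepatocytes once glutathione is spent. Hepatocytes hold most of the liver's GST, UGT and SULT transcripts. Macrophages are known for far fewer of them.

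Library totals ranged between 18644358 and 19954270 counts in the table of 3 h and 0 h, between 19024975 and 20583099 in that of 12 h and 6 h, and between 28017439 and 38382509 in that of the antibodies. Markers of Kupffer cells summed to 10800 to 26100 CPM (counts scaled to library size, on the TMM scale of edgeR) over the 18 libraries, with Cd5l, Csf1r and Clec4f the highest at 0 h and 3 h. The libraries also held markers of sinusoidal endothelial cells, at 1860 to 12400 CPM in sum, of hepatocytes, at 1530 to 10600 CPM, and of monocytes, at 178 to 7370 CPM. In such bulk samples, fewer cells of a type and less RNA per cell cannot be told apart. The 12 h libraries differed most from each other, with a mean Spearman correlation over genes of 0.916 to 0.933 to the other libraries of their group, against 0.974 or more elsewhere. Tests were fitted within each table with edgeR's quasi-likelihood test, and a gene is called where its Benjamini-Hochberg adjusted p over all genes tested was under 0.05.

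At 0 h the glutathione branch carried most of the signal. Per length, the deposited FPKM (fragments scaled to transcript length and library size) placed Gstp1 first of the 46 members, with 442, 1450 and 1210 FPKM, a mean of 1030 ± 525 (SD, n = 3) that exceeded 99.8% of all genes. Gstp1 is the main pi-class GST of the mouse, and mice without Gstp1 and Gstp2 are known to resist acetaminophen. Its 3 values did not overlap those of the next gene, Mgst1, a membrane-bound GST with peroxidase activity, at 199 ± 66.4 FPKM. Mgst1 and Gstm1, the leading mu-class enzyme (193 ± 77.1 FPKM), overlapped each other, and so did each neighbour down to Gsto1.

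After them came Gstz1, which isomerises maleylacetoacetate in tyrosine breakdown, at 110 ± 59.1 FPKM, and the phenol sulfotransferase Sult1a1 at 107 ± 52.2 FPKM. The alpha-class Gsta3 stood at 74.7 ± 40.7, the bile acid sulfotransferase Sult2a8 at 66.0 ± 39.3 and Gsto1, a dehydroascorbate reductase, at 61.8 ± 18 FPKM (n = 3 each). Below Gsto1 the order broke again, as its values did not overlap those of Gstt1 at 20.4 ± 10.6 FPKM. The highest UGT was Ugt1a7c, at rank 13 with 12.2 ± 6.63 FPKM. At the other end Gsta1 was listed at 0, 0.13 and 0 FPKM.

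**Figure D1:**
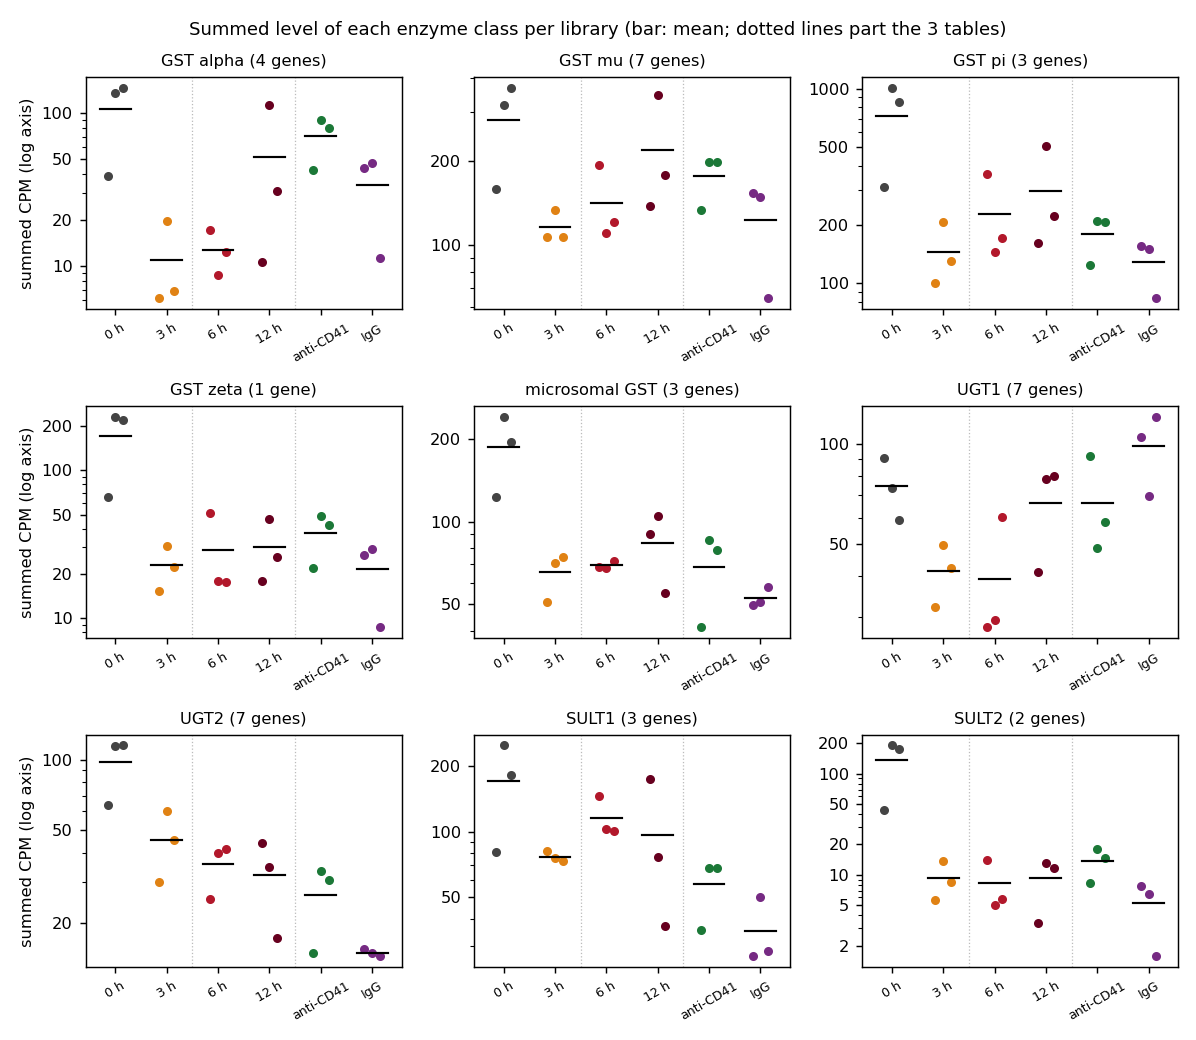
Summed CPM (counts scaled to the library total, log axis) of 9 enzyme classes in each of the 18 libraries, with a bar at each group's mean; the dotted lines part the 3 tables, which were made separately. The SULT2 sum fell to a mean of 9.29 CPM at 3 h, against 137 CPM at 0 h, and lay between 3.31 and 14.0 CPM in the libraries of 6 h and 12 h, while the GST alpha sum reached 113 CPM in replicate 2 of 12 h.

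At 3 h against 0 h, conjugation genes fell across all 3 families and none was called higher. Of 43 members tested, 27 were called lower, which is 62.8% beside 23% of all 14161 genes tested. The other 16 were not called, and 0 were called higher, beside 19.1% of all genes. With an unadjusted p under 0.05 there were 31 members, beside 7291 of the 14161 genes. DESeq2 called 28 members lower and 1 higher, beside 3417 genes lower and 2881 higher of 18232. The median log2 change over the 43 was -1.32, beside -0.01 over all genes, and 38 of the 43 lay below 0. The groups did not overlap for 26 members that were lower and 1 that was higher, beside 29.1% and 26.6% of all genes. Called falls ran from -0.76 to -3.97 on the log2 scale, and 24 of 27 were at least 2-fold.

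By family, 14 of 22 GST, 9 of 15 UGT and 4 of 6 SULT members tested were called lower, with median log2 changes of -1.40, -1.32 and -2.64. The summed CPM of all 46 members was 510, 764 and 641 at 3 h, against 1060, 2710 and 2360 at 0 h. The class sums did not overlap between 3 h and 0 h for 12 of 14 classes and overlapped for SULT1 and GST omega.

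**Figure D2:**
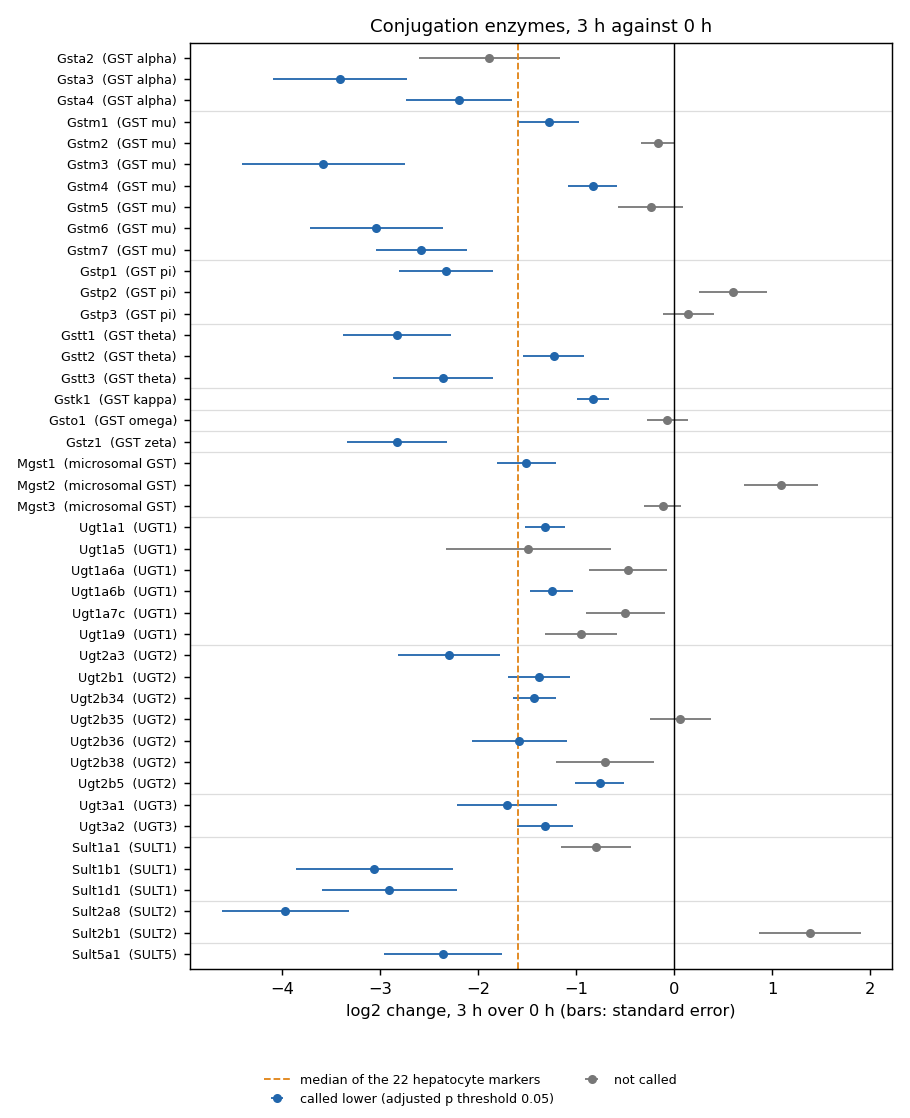
Log2 change of each tested member, 3 h over 0 h, with its standard error, grouped by class; blue points were called lower and grey points were not called. The dashed line marks the median change of the 22 hepatocyte markers, -1.59, and 15 of the 27 called members fell by more. The median change of all 43 tested members was -1.32.

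The pi class holds the most abundant member, and its neighbouring genes differed in call. Gstp1 (GRCm38, chr19:4035411-4037912) had 89.2, 198 and 128 CPM at 3 h, against 302, 996 and 798 CPM at 0 h. All 3 h values lay below all 0 h values, with a log2 change of -2.33 ± 0.48 (SE, adjusted p = 0.0102, edgeR's quasi-likelihood test). Gstp2, its neighbour on chromosome 19, had 6.87, 8.10 and 7.69 CPM at 3 h, against 3.54, 3.38 and 8.03 CPM at 0 h. It was not called (log2 0.60 ± 0.35, adjusted p = 0.202), and neither was Gstp3 (0.14 ± 0.26). Gstp2 was named after its values were seen, and without replicate 3 of 0 h it was called higher (1.12, adjusted p = 0.0128, range over alternatives 0.0128 to 0.455). Gstp2 made up 5.43% ± 1.53 of the pi-class counts at 3 h and 0.825% ± 0.428 at 0 h (SD, n = 3 each).

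The annotated transcripts of Gstp1 and Gstp2 share an identical run of 369 bases, so reads may be divided between them with error. Summed, the 3 pi-class genes fell by 2.24 on the log2 scale (adjusted p = 0.0106). The promoters of the pair are shown because the genes differed in call while these windows are 82.0% identical. They are RefSeq sequence of GRCm38.p6, from 250 bases before to 50 bases after the annotated start, both on the minus strand, at chr19:4037863-4038162 for Gstp1 and chr19:4042172-4042471 for Gstp2. Capitals mark the AP-1 motif TGANTCA, and a TGACTCA followed by GC would also match the antioxidant response element core given with Gsta3. The sites shown read TGAGTCA and match that core on neither strand. The AP-1 motif was searched on both strands and is in 7.81% of all 32851 promoters of the table and in 11 of the 54 promoters of members.
Gstp1: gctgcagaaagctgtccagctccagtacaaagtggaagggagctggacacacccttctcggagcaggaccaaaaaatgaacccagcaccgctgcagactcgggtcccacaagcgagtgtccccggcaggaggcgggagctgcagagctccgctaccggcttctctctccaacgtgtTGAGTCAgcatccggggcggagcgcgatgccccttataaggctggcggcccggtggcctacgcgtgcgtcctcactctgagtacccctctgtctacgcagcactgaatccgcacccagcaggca
Gstp2: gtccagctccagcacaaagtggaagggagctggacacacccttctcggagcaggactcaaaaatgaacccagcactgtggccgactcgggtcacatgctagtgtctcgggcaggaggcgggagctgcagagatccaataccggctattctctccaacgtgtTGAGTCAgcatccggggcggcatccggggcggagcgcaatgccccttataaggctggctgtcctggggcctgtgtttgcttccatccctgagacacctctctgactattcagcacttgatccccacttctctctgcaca

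In the alpha class, Gsta3 and Gsta4 were called lower and Gsta2 was not (-1.89 ± 0.72, adjusted p = 0.073). Without replicate 1 of 0 h Gsta2 was called lower too (-2.36, adjusted p = 0.00771, range over alternatives 0.00771 to 0.222). Gsta3 (chr1:21240565-21265575), known in the mouse for detoxifying the epoxide of aflatoxin, had 4.08, 16.8 and 5.67 CPM at 3 h, against 35.8, 120 and 127 CPM at 0 h. Its groups did not overlap, and it fell by 3.41 ± 0.68 on the log2 scale (adjusted p = 0.00913). Gsta4, which conjugates the lipid peroxidation product hydroxynonenal, had 1.29, 1.30 and 1.04 CPM at 3 h, against 1.82, 7.40 and 7.59 CPM at 0 h. It fell by 2.20 ± 0.54 (adjusted p = 0.0173), with an adjusted p of 0.0583 without replicate 2 of 0 h and 0.0668 without replicate 3 of 3 h. The promoter of Gsta3 (chr1:21240335-21240634, plus strand, RefSeq, GRCm38.p6) is shown because it holds the core of an antioxidant response element, TGACNNNGC, in capitals, while the transcript fell. This core was searched on both strands and is in 12.4% of all promoters and in 4 of the 54 promoters of the 42 members with a promoter in the table.
Gsta3: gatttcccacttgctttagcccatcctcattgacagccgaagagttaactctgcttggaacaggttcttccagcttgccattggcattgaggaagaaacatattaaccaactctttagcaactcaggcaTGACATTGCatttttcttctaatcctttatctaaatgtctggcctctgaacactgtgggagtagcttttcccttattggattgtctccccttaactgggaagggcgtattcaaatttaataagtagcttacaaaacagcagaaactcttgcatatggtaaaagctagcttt

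In the mu class 5 of 7 members were called lower. Gstm1 had 82.7, 113 and 93.6 CPM at 3 h, against 130, 276 and 297 CPM at 0 h, a log2 change of -1.28 ± 0.31 (adjusted p = 0.0161). Its groups did not overlap, but 3 of the 6 single libraries, when left out, took its adjusted p to between 0.052 and 0.0618. Those libraries were replicates 1 and 3 of 3 h and replicate 2 of 0 h. The scarcer Gstm3, Gstm6 and Gstm7 fell more. Gstm7 had 0.672, 1.46 and 1.68 CPM at 3 h, against 3.94, 8.89 and 9.86 CPM at 0 h (log2 -2.58 ± 0.46, adjusted p = 0.00652). Gstm6 had 0.568, 1.03 and 0.174 CPM at 3 h, against 1.77, 6.16 and 6.85 CPM at 0 h (-3.04 ± 0.68). Both genes were low at 3 h in each library.

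Gstm3 had 0.207, 0.108 and 0.0578 CPM at 3 h, against 0.556, 1.14 and 3.06 CPM at 0 h (-3.58 ± 0.83, adjusted p = 0.0145). Without replicate 3 of 3 h its adjusted p was 0.0574. The third-highest count of Gstm3 at 3 h and 0 h was 11, in a 0 h library. It thus met the count minimum there only through the group where it was high. Gstm4 also fell (-0.83 ± 0.25, adjusted p = 0.0361). Of the 6 fits that left out a library, its call held in 1, without replicate 1 of 0 h, and its adjusted p was 0.0822 to 0.102 in the others. Gstm2 (15.0 ± 1.19 at 3 h and 16.8 ± 3.57 CPM at 0 h) and Gstm5 (2.02 ± 0.38 and 2.39 ± 0.968 CPM in the same order) were not called.

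The theta, kappa and zeta classes were called lower throughout, 5 members of 5. Gstz1 (chr12:87147161-87164723) had 15.0, 31.2 and 23.9 CPM at 3 h, against 64.4, 228 and 206 CPM at 0 h. The groups were far apart, and its log2 change was -2.83 ± 0.51 (adjusted p = 0.00667). Gstt1, a theta-class enzyme that acts on small halogenated compounds, had 1.86, 4.37 and 1.45 CPM at 3 h, against 8.29, 20.1 and 26.3 CPM at 0 h (-2.83 ± 0.55). Gstt3 had 1.24, 2.65 and 2.20 CPM at 3 h, against 4.15, 14.1 and 13.0 CPM at 0 h (-2.36 ± 0.51, adjusted p = 0.0115). Gstt2 changed by -1.23 ± 0.31, and Gstk1, the kappa-class enzyme of mitochondria and peroxisomes, by -0.83 ± 0.16. The Gstk1 call held in all 6 fits with a library left out. The Gstt2 call held in 1, without replicate 1 of 0 h, with an adjusted p of 0.0518 to 0.0685 in the others.

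Outside these classes the GSTs split. Gsto1 had 66.4, 59.8 and 67.3 CPM at 3 h, against 45.6, 81.1 and 77.1 CPM at 0 h, and the overlapping groups gave a log2 change of -0.07 ± 0.21 (adjusted p = 0.796). Gsto2, below the expression filter, had 0.672, 0.756 and 0.405 CPM at 3 h, against 0.101, 0.0993 and 0.148 CPM at 0 h. DESeq2, which tested it, called it higher (adjusted p = 0.0117, range over the 6 alternatives that tested it 0.0108 to 0.0341), and it was named after its values were seen.

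Among the membrane-bound enzymes, Mgst1 had 43.9, 67.2 and 75.8 CPM at 3 h, against 115, 236 and 180 CPM at 0 h, and fell by 1.51 ± 0.30 (adjusted p = 0.00917). Mgst3, which has peroxidase activity, was level at 3.93, 3.29 and 3.41 CPM at 3 h, against 4.45, 3.43 and 3.70 CPM at 0 h, and was not called (-0.12 ± 0.19). Mgst2, which can form cysteinyl leukotrienes, was the 1 tested member whose 3 h values all lay above its 0 h values. It had 2.48, 1.78 and 1.27 CPM at 3 h, against 1.26, 0.596 and 0.739 CPM at 0 h (1.09 ± 0.38, adjusted p = 0.0552), and it was named for this after its values were seen. Without replicate 1 of 0 h it was called higher (1.46, adjusted p = 0.0257, range over alternatives 0.0257 to 0.167).

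The UGT1 genes share 1 locus on chromosome 1, where the members span chr1:88070779-88220002 and alternative first exons are joined to common later exons. Ugt1a9 starts first, and the annotated end is the same for all members but Ugt1a6b, which ends at 88218998. Ugt1a7c and Ugt1a1 transcripts share an identical run of 1314 bases, and the longest annotated Ugt1a7c transcript holds all 2297 bases of that of Ugt1a6a. How the authors divided these reads is not given in the sources used here, so the level of each UGT1 gene is uncertain. Ugt1a1, the bilirubin-conjugating enzyme, had 5.84, 7.34 and 6.07 CPM at 3 h, against 12.7, 19.6 and 15.9 CPM at 0 h. It fell by 1.32 ± 0.20 (adjusted p = 0.00414) with groups well apart. Ugt1a6b also fell (-1.25 ± 0.22, adjusted p = 0.00657), and both calls held in all 6 fits with a library left out.

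Ugt1a6a and Ugt1a9, whose human counterparts conjugate phenols such as acetaminophen, were not called. Ugt1a6a had 1.08, 2.43 and 0.925 CPM at 3 h, against 1.67, 2.58 and 1.92 CPM at 0 h (-0.47 ± 0.40). Ugt1a5 averaged 0.364 ± 0.488 CPM at 3 h and 1.03 ± 0.172 CPM at 0 h and was called lower only without replicate 2 of 3 h (-3.52, adjusted p = 0.0219, range over alternatives 0.0219 to 0.41). Ugt1a9 had 1.39, 2.38 and 3.18 CPM at 3 h, against 2.98, 6.06 and 4.39 CPM at 0 h (-0.95 ± 0.37, adjusted p = 0.0781). It was called lower without replicate 1 of 0 h (-1.18, adjusted p = 0.0374, range over alternatives 0.0374 to 0.239). Ugt1a7c was the most abundant of the locus, with 19.4, 31.9 and 31.1 CPM at 3 h, against 62.8, 32.7 and 21.1 CPM at 0 h. Its highest 0 h library was replicate 1, which was the lowest 0 h library for all 27 members called lower. Ugt1a7c was not called (-0.50 ± 0.40, adjusted p = 0.34) and was named after its values were seen.

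Ugt1a7c held 64.2% ± 3.74 of the locus's counts at 3 h and 50.8% ± 17.1 at 0 h, and Ugt1a1 held 15.4% ± 2.61 at 3 h and 23.1% ± 7.77 at 0 h. These shares overlapped between the groups. Summed over the 8 Ugt1a rows of the table, the locus fell by 0.78 ± 0.22 on the log2 scale (adjusted p = 0.0298).

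The UGT2 and UGT3 enzymes, encoded outside the UGT1 locus, were called lower for 5 of 7 and 2 of 2 members. Ugt2a3 had the largest change. It had 1.70, 4.54 and 4.28 CPM at 3 h, against 7.48, 22.6 and 21.6 CPM at 0 h (-2.30 ± 0.52, adjusted p = 0.0129). Ugt2b1 had 3.05, 4.21 and 6.02 CPM at 3 h, against 7.69, 14.1 and 12.7 CPM at 0 h. Its groups did not overlap (-1.38 ± 0.32, adjusted p = 0.0143), and without replicate 2 of 0 h its adjusted p was 0.0528. Ugt2b34 fell by 1.43 ± 0.22, and Ugt2b36 and Ugt2b5 by 1.58 ± 0.48 and 0.76 ± 0.25. Ugt2b36 was the 1 called member whose groups overlapped. Both calls held without replicate 1 of 0 h and without replicate 2 of 3 h, and were lost without each of the other 4 libraries (adjusted p = 0.0852 to 0.116 for Ugt2b36 and 0.0895 to 0.143 for Ugt2b5).

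Ugt2b35 was level, at 15.4 ± 6.26 CPM at 3 h and 14.8 ± 3.15 CPM at 0 h (0.06 ± 0.31, n = 3 each). Ugt2b38 shares a run of 444 identical bases with Ugt2b5 and averaged 0.502 CPM at 3 h and 0.814 CPM at 0 h. It was called lower without replicate 3 of 3 h (-1.45, adjusted p = 0.0495, range over alternatives 0.0495 to 0.588). Ugt3a1 and Ugt3a2, whose human counterparts use sugars other than glucuronic acid, were called lower (-1.71 ± 0.51 and -1.32 ± 0.29). Ugt3a2 kept its call in all 6 fits with a library left out. Ugt3a1 kept it only without replicate 1 of 0 h, with an adjusted p of 0.0533 to 0.105 in the others.

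The sulfotransferases held the largest fall of all members. Sult2a8 (chr7:14410686-14446780), which sulfates bile acids in the mouse, had 4.13, 12.5 and 8.79 CPM at 3 h, against 42.8, 189 and 167 CPM at 0 h, a log2 change of -3.97 ± 0.65 (adjusted p = 0.00527). Its lowest 0 h library lay above its highest 3 h library by a wide margin. Sult1d1, a catecholamine sulfotransferase, had 0.93, 6.64 and 4.97 CPM at 3 h, against 15.5, 50.8 and 27.9 CPM at 0 h (-2.91 ± 0.69, adjusted p = 0.0153). Sult1b1, which sulfates thyroid hormones, had 0.0517, 1.40 and 0.752 CPM at 3 h, against 2.33, 8.19 and 7.89 CPM at 0 h (-3.06 ± 0.80, adjusted p = 0.0218). For both, no 3 h value reached the lowest 0 h value. Sult5a1, an enzyme with no settled substrate, had 0.31, 1.13 and 0.81 CPM at 3 h, against 1.52, 5.66 and 4.44 CPM at 0 h (-2.36 ± 0.60, adjusted p = 0.0198). Sult5a1 met the count minimum only in the table of 3 h and 0 h, where all its 0 h values lay above its 3 h values. Its third-highest count was 30 there, 4 in the table of 12 h and 6 h and 6 in that of the antibodies. The calls of Sult1d1, Sult1b1 and Sult5a1 were lost without replicate 3 of 3 h (adjusted p = 0.0551, 0.0759 and 0.0665). Without replicate 2 of 0 h they were lost too (0.0515, 0.0699 and 0.0668). The Sult1b1 and Sult5a1 calls were also lost without replicate 3 of 0 h (0.0555 and 0.0501), and the Sult5a1 call without replicate 1 of 3 h (0.0529).

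Sult1a1, the sulfotransferase that takes acetaminophen and other phenols, differed from these. It had 79.5, 68.6 and 73.1 CPM at 3 h, against 61.9, 187 and 137 CPM at 0 h, so that replicate 1 of 0 h lay below all 3 h libraries and the rest of 0 h lay above. It was not called (-0.80 ± 0.36, adjusted p = 0.11), and was called lower without that library (-1.14, adjusted p = 0.003, range over alternatives 0.003 to 0.336). Sult2b1, a cholesterol sulfotransferase, was scarce and uncalled at 1.09 ± 0.541 CPM at 3 h and 0.417 ± 0.181 CPM at 0 h (1.38 ± 0.52, adjusted p = 0.0693). It was called higher without replicate 3 of 3 h (1.75, adjusted p = 0.0348, range over alternatives 0.0336 to 0.178).

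Single libraries moved the count. Without replicate 2 of 0 h 16 members were called lower, without replicate 3 of 3 h 17, and without replicate 1 of 0 h 30. In each of 11 alternatives, 15 of the 27 were called lower: Gsta3, Gstk1, Gstm6, Gstm7, Gstp1, Gstt1, Gstt3, Gstz1, Mgst1, Ugt1a1, Ugt1a6b, Ugt2a3, Ugt2b34, Ugt3a2 and Sult2a8.

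Hepatocyte markers moved with these genes. Of 22 markers 17 were called lower at 3 h and none higher, with a median log2 change of -1.59 and no marker at 0 in all libraries. Their summed level was 2600 to 5230 CPM at 3 h, against 5800 to 10600 CPM at 0 h. Alb and Trf, which were not called, made up 61.2% to 68.1% of that sum at 3 h and 33.1% to 49.4% at 0 h. Replicate 1 had the lowest hepatocyte sum of its group at both times. It was the lowest 0 h library for 35 of the 43 members tested (81.4%, beside 42.0% of all genes) and the lowest 3 h library for 25 (58.1%, beside 35.0%). Of the 27 members called lower, 15 fell by more than the hepatocyte marker median. Over all tested members, called or not, 10 of 22 GST, 2 of 15 UGT and 4 of 6 SULT fell by more. The median over the 43 tested members was -1.32. Kupffer markers were called higher for 6 of 15, monocyte markers lower for 6 of 7 and neutrophil markers higher for 6 of 10, while cholangiocyte markers were called lower for 3 of 7. The part of these cell types in the falls was not tested.

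The partners of the transferases moved in both directions at 3 h. For each list below, the share of all 14161 genes tested was 19.1% called higher and 23% called lower. Among 13 tested genes of glutathione supply and turnover, 6 were called higher and 5 lower (median log2 change 0.38). Lap3, a peptidase of cysteinylglycine, fell (-2.02 ± 0.30), as did Chac2 (-2.03 ± 0.38), while Ggt5, which cleaves glutathione conjugates outside the cell, rose (1.5 ± 0.13). For UDP-glucuronic acid 1 of 6 genes was called higher and 3 lower (median -0.37), among them Pgm1 (-1.22 ± 0.29), Ugp2 (-1.05 ± 0.17), which makes UDP-glucose, and Pgm2, the higher gene (0.78 ± 0.19). For the sulfate donor PAPS 1 of 7 was called higher and 3 lower (median -0.11). Those lower were Papss2, a PAPS synthase (-1.64 ± 0.27), the sulfate transporter Slc26a1 (-1.40 ± 0.25) and Bpnt1 (-0.69 ± 0.20), which clears a by-product of sulfation.

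Other conjugating enzymes were called lower for 7 of 10 and higher for none (median -1.90). The largest falls were those of the glycine conjugase Glyat (-3.93 ± 0.66), the bile acid conjugase Baat (-3.15 ± 0.67) and the methyltransferase Inmt (-2.84 ± 0.78). All 3 cytochromes that oxidise acetaminophen fell, Cyp3a11 by 2.60 ± 0.45, Cyp1a2 by 2.32 ± 0.30 and Cyp2e1 by 2.16 ± 0.21 (adjusted p = 0.00609, 0.00309 and 0.00193). The efflux transporters were mostly not called, with 2 of 9 higher (Abcg2, 1.49 ± 0.14, and Abcb1a, 0.91 ± 0.23) and Abcc5 lower (-0.58 ± 0.10).

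Of 15 regulators 2 were called higher and 6 lower. Among those lower were Nr1h4, the bile acid receptor (-3.34 ± 0.50), and Nr1i3, the drug-sensing receptor CAR (-3.04 ± 0.40). Nfe2l2, which encodes NRF2, the activator at antioxidant response elements, was not called (0.17 ± 0.16) and was named after its value was seen. Of 11 NRF2 targets outside the transferases 6 were called higher and 2 lower. Their median was 0.56. Srxn1, a sulfiredoxin, had 207 ± 31.8 CPM at 3 h and 55.4 ± 6.02 CPM at 0 h (1.90 ± 0.15, adjusted p = 0.00138). Cbr3, a carbonyl reductase, also rose (1.24 ± 0.34), and Me1, which makes NADPH, fell (-2.60 ± 0.46). Cyp2e1 and Hnf4a stand in the hepatocyte marker list as well. In the other comparisons no gene of these lists was called.

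At 12 h against 6 h no conjugation gene was called. Of 40 members tested edgeR called 0, beside 0% of 14010 genes, and 2 had an unadjusted p under 0.05, Gsta1 and Gsta3, beside 726 of the 14010 genes. DESeq2 also called 0 members, with 2 genes higher and 1 lower among all genes. The median log2 change over the members was 0.24, beside -0.01 over all genes. The groups did not overlap for Mgst3, which was higher, and Ugt1a9, which was lower, beside 4.12% and 5.16% of all genes.

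The alpha class had the largest median log2 change of the classes at 12 h, 1.87 over 4 members. Gsta3 had 7.95, 80.5 and 23.1 CPM at 12 h, against 11.1, 6.59 and 8.56 CPM at 6 h (2.09 ± 0.76, adjusted p = 0.697). Gsta1 had 1.31, 17.0 and 4.95 CPM at 12 h, against 1.78, 0.159 and 1.83 CPM at 6 h (2.62 ± 1.06). It was named after its values were seen, and so was Ugt1a6b with 5.70, 17.9 and 2.53 CPM at 12 h, against 2.14, 3.61 and 4.18 CPM at 6 h. In each, replicate 2 of 12 h was far above the others and 1 of the other 12 h libraries lay among the 6 h values. Without replicate 2 of 12 h the log2 changes were 0.83 for Gsta3, 1.31 for Gsta1 and 0.32 for Ugt1a6b.

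The same library was the highest of 12 h for 29 of the 40 members (72.5%, beside 34.6% of all genes). In it Gstp1 had 478 CPM, with 152 and 207 in replicates 1 and 3 of 12 h, and 346, 141 and 157 CPM at 6 h (0.38 ± 0.53). Gstm1 had 110, 292 and 165 CPM at 12 h, against 163, 92.2 and 94.6 CPM at 6 h (0.70 ± 0.42). Mgst3 had 4.23, 9.47 and 4.20 CPM at 12 h, against 3.06, 3.29 and 4.07 CPM at 6 h, so that all 12 h values lay above, by little in 2 of 3 libraries. The hepatocyte marker sum of that library, 4230 CPM, lay between those of replicates 1 and 3 of 12 h (4680 and 2040 CPM), against 5010, 4680 and 3870 CPM at 6 h. The part of hepatocyte RNA in the high values of this library was not tested.

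Other members were highest in another 12 h library. Ugt2b1 had 3.19, 1.47 and 1.36 CPM at 12 h, against 1.38, 2.87 and 3.71 CPM at 6 h (-0.40 ± 0.51). Sult1a1 had 173, 69.7 and 33.7 CPM at 12 h, against 132, 105 and 98.1 CPM at 6 h (-0.28 ± 0.54), and Ugt1a1 had 7.58, 3.00 and 2.73 CPM at 12 h, against 3.57, 7.22 and 6.26 CPM at 6 h. In these replicate 1 was the highest of 12 h, as it was for the sinusoidal endothelial marker sum (10700, 4990 and 1860 CPM at 12 h, against 7270, 6930 and 8220 CPM at 6 h). Replicate 1 was also the highest of 12 h for the hepatocyte sum (4680, 4230 and 2040 CPM) and the Kupffer sum (17700, 13400 and 16100 CPM). The same held for the stellate cell sum (532, 517 and 176 CPM). Monocyte, neutrophil, cholangiocyte, and T, NK and B cell sums were highest in another 12 h library. The part of these cell types in the order of the 3 members was not tested. Ugt1a9 had 1.31, 1.90 and 1.21 CPM at 12 h, against 2.19, 2.55 and 2.92 CPM at 6 h (-0.79 ± 0.35, adjusted p = 0.697).

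Groups overlapped for the rest of the genes named in every comparison. Gsto1 (90.4 ± 34.4 at 12 h and 78.5 ± 10.8 CPM at 6 h), Mgst1 (75.6 ± 22.8 and 65.0 ± 2.05), Sult1d1 (3.18 ± 0.296 and 4.44 ± 4.64), Gsta4 (3.5 ± 3.80 and 1.99 ± 0.851) and Ugt1a6a (1.23 ± 0.601 and 0.992 ± 0.322) overlapped between the times (12 h before 6 h in each pair, SD, n = 3).

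Over the 4 times, plain CPM set the tables side by side without a test, since they were made separately. The mean of 39 of 46 members was lower at 3 h than at 0 h, of 39 at 6 h and of 36 at 12 h. Below 0 h at all 3 later times were 34. No share over all genes was taken beside these counts, so they do not set the members apart from other genes. The 46 include scarce members such as Gsta1 and Ugt1a2, which averaged 0.0361 and 0.131 plain CPM at 0 h. Sult2a8 averaged 137, 8.22, 7.66 and 8.62 CPM at 0, 3, 6 and 12 h. Gstp1 averaged 718, 135, 216 and 282 CPM in the same order, and Gsta3 97.1, 8.63, 8.74 and 37.8 CPM. Sult1a1 (132, 71.9, 111 and 92.0 CPM) and Gsto1 (69.8, 62.8, 78.0 and 91.1 CPM) varied less, and Ugt1a7c averaged 39.7, 26.6, 26.2 and 50.0 CPM. The SDs of Gsta3 and Gstp1 at 12 h, 39.3 and 181 CPM, exceeded their differences from 6 h.

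In mice given anti-CD41 against IgG most members stood higher, and none was called. Of 42 members tested edgeR called 0, beside 0.0671% of 14905 genes called higher, 0.00671% lower and 0.0738% in either direction. An unadjusted p under 0.05 was found for 12 members, beside 2757 of the 14905 genes. DESeq2 called 3 members higher and 0 lower, beside 623 genes higher and 444 lower of 19299. The median log2 change was 0.74, beside 0.01 over all genes, and 37 of 42 members lay above 0, beside 50.9% of all genes. The groups did not overlap for 9 members that were higher and 0 that were lower, beside 12.7% and 12.3% of all genes.

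The 3 members that DESeq2 called, each named by that call after its values were seen, were Sult1b1, Ugt1a6b and Ugt1a9. Sult1b1 had 0.363, 1.72 and 1.36 CPM with anti-CD41, against 0.0719, 0.129 and 0.181 CPM with IgG (edgeR 3.12 ± 0.76, adjusted p = 0.154; DESeq2 adjusted p = 0.0107, the lowest over alternatives, with 0.543 the highest). Ugt1a6b had 3.12, 3.77 and 1.82 CPM with anti-CD41, against 1.19, 0.938 and 1.06 CPM with IgG (1.45 ± 0.38, adjusted p = 0.161, and 0.0182 to 0.553 over alternatives). Neither gene overlapped between the groups. The third-highest count of Sult1b1 among the antibody libraries was 12, in an anti-CD41 library. It thus met the count minimum there only through the group where it was high. Ugt1a9 had 0.635, 4.91 and 6.49 CPM with anti-CD41, against 0.719, 0.55 and 1.21 CPM with IgG (2.27 ± 0.79, adjusted p = 0.212, and 0.0428 to 0.586 over alternatives). There, replicate 1 of anti-CD41 lay among the IgG values.

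Among the GSTs, Gsta3 had 38.8, 77.3 and 69.9 CPM with anti-CD41, against 37.6, 36.7 and 9.13 CPM with IgG (1.16 ± 0.52, adjusted p = 0.292). Gstp1 had 109, 179 and 180 CPM with anti-CD41, against 142, 135 and 78.5 CPM with IgG (0.40 ± 0.28), and Gstm1 had 109, 154 and 162 CPM with anti-CD41, against 138, 131 and 57.8 CPM with IgG (0.38 ± 0.33). In all 3, replicate 1 was the lowest with anti-CD41 and replicate 3 the lowest with IgG. Gsta4, Mgst1 and Mgst3 changed by 0.30 ± 0.50, 0.28 ± 0.28 and 0.11 ± 0.26, and Gsto1 was level at 64.7 ± 6.38 CPM with anti-CD41 and 65.8 ± 16.0 CPM with IgG (-0.02 ± 0.18, n = 3 each).

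Among the UGTs and SULTs of the panel, Ugt1a1 had 2.45, 7.17 and 9.65 CPM with anti-CD41, against 2.16, 2.56 and 3.78 CPM with IgG (1.18 ± 0.50, adjusted p = 0.269). Ugt1a6a (1.25 ± 1.11), Ugt2b1 (1.05 ± 0.61), Sult1d1 (0.75 ± 0.43) and Sult1a1 (0.58 ± 0.31) also had positive changes, with overlapping groups. Sult2a8, named here after its values were seen, had 7.96, 17.4 and 14.1 CPM with anti-CD41, against 7.76, 6.31 and 1.18 CPM with IgG (1.38 ± 0.62, adjusted p = 0.298). Its groups did not overlap, although replicate 1 of anti-CD41 was close to replicate 1 of IgG.

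**Figure D3:**
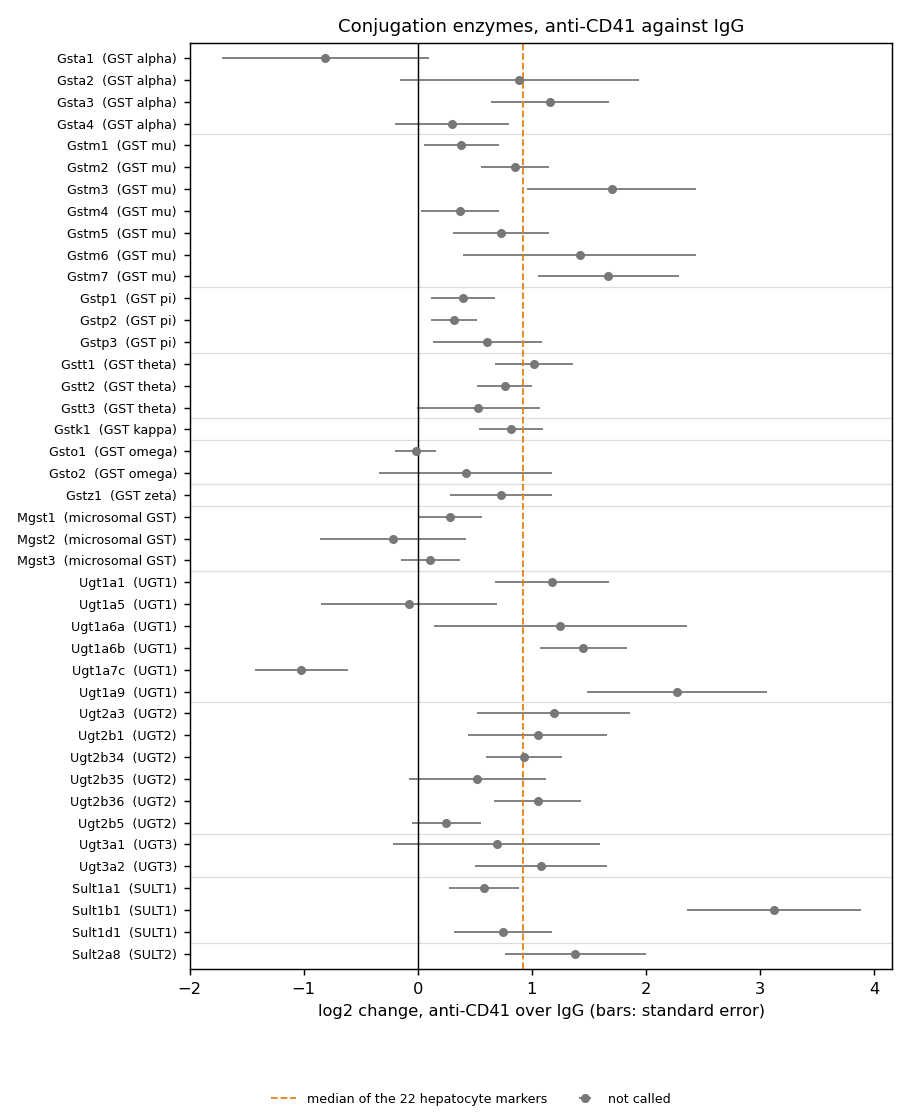
Log2 change of each tested member, anti-CD41 over IgG, with its standard error, grouped by class; no member was called. The dashed line marks the median of the 22 hepatocyte markers, 0.92, and 37 of 42 members lie to the right of 0, with Ugt1a7c at -1.02 among the 5 to the left.

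Cell type markers differed between the antibody groups as well. The hepatocyte marker sum was 1530, 3760 and 3830 CPM with anti-CD41, against 1700, 2210 and 1980 CPM with IgG, with a median log2 change of 0.92 over 22 markers and none called. Replicate 1 of anti-CD41, the lowest of these sums, was the lowest library of its group for 38 of 42 members (90.5%, beside 41.3% of all genes). With IgG, replicate 3 was the lowest for 22 of 42 (52.4%, beside 38.3% of all genes), while replicate 1 had the lowest IgG sum. Sinusoidal endothelial markers summed to 9640 to 12400 CPM with anti-CD41, against 4360 to 8440 CPM with IgG. Monocyte markers summed to 1680 to 3440 CPM with anti-CD41, against 4870 to 7370 CPM with IgG, and neutrophil markers to 307 to 669 CPM, against 908 to 4580 CPM. The part of these cell types in the members' levels was not tested.

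Ugt1a7c had 78.3, 28.1 and 36.0 CPM with anti-CD41, against 99.2, 65.4 and 123 CPM with IgG, the lowest fitted change of the 42 members (-1.02 ± 0.41, adjusted p = 0.248). It held 70.4% ± 14.6 of the locus's counts with anti-CD41 and 93.5% ± 0.418 with IgG (SD, n = 3 each), and these shares did not overlap, as the anti-CD41 libraries had 87.2% or less and the IgG libraries 93.0% or more. Summed over 9 Ugt1a rows, the locus changed by -0.68 ± 0.30 (adjusted p = 0.294).

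Within each of the 6 groups, the library with the most Ugt1a7c was also the one with the highest monocyte marker score, the mean log2(CPM + 1) over 7 markers. This order held in 6 of 6 groups for 129 of the 12899 genes tested in all 3 tables, which is 1%, and Ugt1a7c was the 1 member among them. At 12 h, for example, Ugt1a7c had 25.0, 52.9 and 71.3 CPM where the monocyte sum was 368, 2970 and 5360 CPM, and at 6 h 18.4, 16.0 and 44.3 CPM where it was 338, 239 and 2320 CPM. The lowest library was also the same in 5 of 6 groups. Between groups the sizes differed. At 3 h against 0 h the monocyte markers had a median log2 change of -2.93, and Ugt1a7c one of -0.50 ± 0.40. In the same order, the changes were 2.17 and 0.92 at 12 h against 6 h, and -0.91 and -1.02 with anti-CD41 against IgG. Fn1, one of the 7 markers, is also made by hepatocytes. The order within groups was looked at after the Ugt1a7c values were seen, and the part of monocytes in the Ugt1a7c level was not tested.

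**Figure D4:**
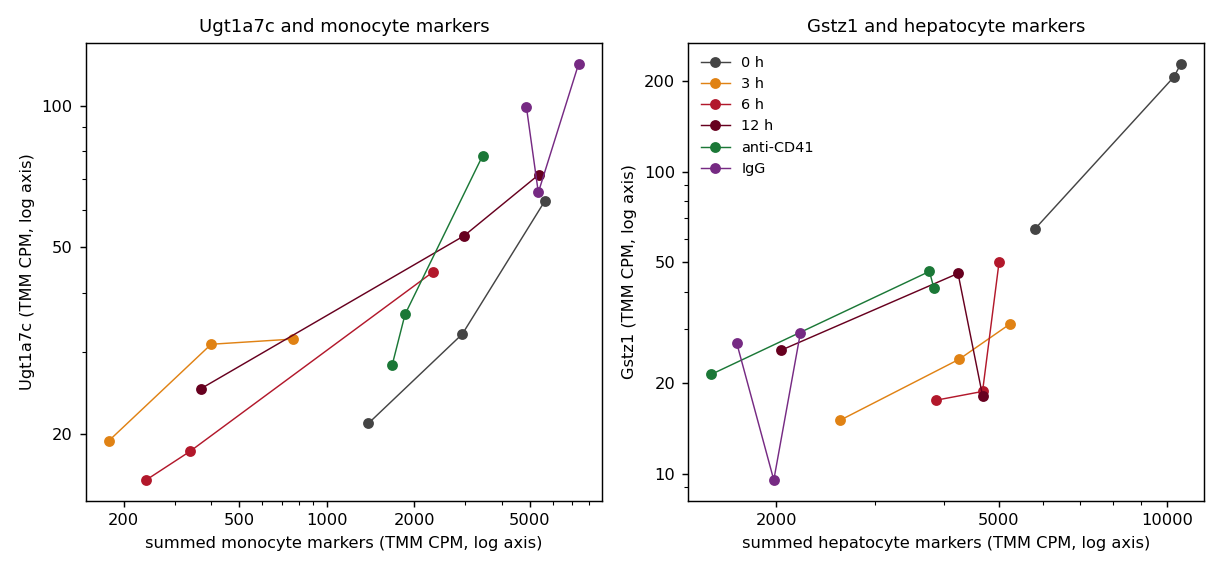
Left, Ugt1a7c against the summed monocyte markers, and right, Gstz1 against the summed hepatocyte markers, in TMM CPM on log axes; each point is a library, and lines join the 3 libraries of a group. Ugt1a7c was highest where monocyte markers were highest in all 6 groups, and Gstz1 reached 228 CPM in the 0 h library with 10600 CPM of hepatocyte markers.

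Among the other members, the lowest library of a group was often that with the lowest hepatocyte score. As before, a score is the mean log2(CPM + 1) over the markers of a list. With IgG the hepatocyte score was lowest in replicate 3 (4.83, against 5.18 in replicate 1), whereas the hepatocyte sum was lowest in replicate 1. For the 38 members tested in all 3 tables, the lowest library of a group was that with the lowest hepatocyte score in a median of 4 of 6 groups, against a median of 2 for all 12899 genes. In at least 5 groups this was so for 8 of the 38 (21.1%, beside 4.62% of all genes), among them Ugt2a3 and Gstm7 in 6 of 6, and Gstz1, Gstk1 and Sult1d1 in 5. The highest library was that with the highest hepatocyte score in a median of 3 groups, against 2 for all genes, and in at least 5 groups for 2 of the 38 (5.26%, beside 2.58% of all genes). For the Kupffer score the medians were 2 and 2. For the monocyte score, the highest side had a median of 1 against 2 for all genes, and 2 of the 38 matched in at least 5 groups (5.26%, beside 5.91% of all genes). Those 2 were Ugt1a7c and Ugt1a6a, the second in 5 of 6 groups, whose annotated transcript lies wholly within that of Ugt1a7c. For the Kupffer score, 1 of the 38 matched on the highest side in at least 5 groups (2.63%, beside 4.25% of all genes). This was Gstm5, in 5 of 6 groups. These counts describe shared libraries and carry no test.

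**Figure D5:**
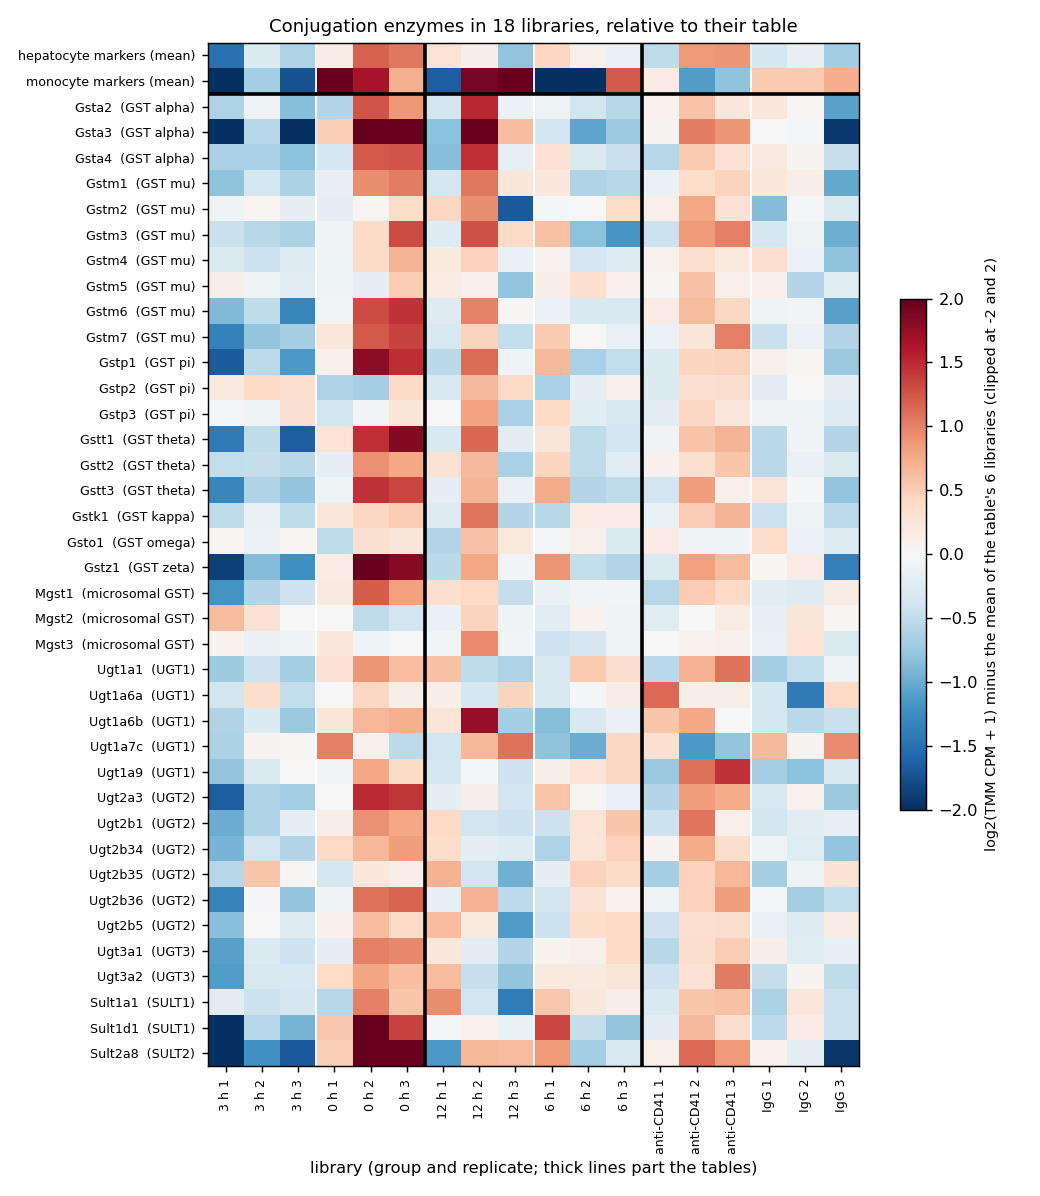
Each of the 38 members tested in all 3 tables in each library, as log2(TMM CPM + 1) minus the mean of that table's 6 libraries, with the mean of the hepatocyte and monocyte markers on the same scale in the top rows; red is higher and blue lower. Most members are blue in the 3 h libraries beside the 0 h libraries and red in replicate 2 of 12 h, and within each group Ugt1a7c is highest in the library where the monocyte row is highest.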

How the data were processed

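RNA of Kupffer cell preparations was measured in 18 libraries of 6 groups, and a library's group came from its title. Per the submitters' processing notes the sources name HISAT2 and the build GRCm38. How reads were counted, with which annotation, is not given in the sources used here. Per the file headers and values, the authors deposited estimated counts (expected counts), FPKM and TPM for the time course, and whole-number counts for the antibody groups. TPM was not used here, and FPKM served for levels and as an alternative.

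Of the time-course estimated counts, 35.6% and 35.9% per table were not whole, and they were rounded for testing. Each table was fitted alone in edgeR 4.0.16 (R 4.3.3), with filterByExpr, TMM and the quasi-likelihood test, two-sided, adjusted by Benjamini-Hochberg over all genes tested. CPM are on the TMM scale unless called plain. Alternatives were DESeq2 1.42.0, its size factors within edgeR, no expression filter, a replicate block, summed near-identical copies, limma 3.58.1 on log2(FPKM + 1), and leaving out each library. The scripts were tested on simulated data. Replicate libraries of a group differed by more than sampling noise (chi-square per degree of freedom of at least 15.8).

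Values per library are given for up to 12 called members per direction with the largest change and at least 1 CPM, and for a panel of Gstp1, Gstm1, Gsta3, Gsta4, Gsto1, Mgst1, Mgst3, Ugt1a1, Ugt1a6a, Ugt1a9, Ugt2b1, Sult1a1 and Sult1d1. Of each pathway list up to 3 called genes are named. One gene that this rule would name, and a motif search tied to it, are not reported here. Members and lists were chosen with earlier results of these data known. Promoters are from RefSeq, which held one for 42 of the 46 members; Gsta4, Ugt1a6b, Ugt3a2 and Gstt2 had none in the table. Transcript overlaps come from GENCODE.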

Additional observations from a re-analysis of the deposited data

How the results depend on the processing

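At 3 h against 0 h, 27 members were called lower, a count of 26 to 28 under DESeq2, its size factors within edgeR, no expression filter, limma on FPKM and summed copies, and of 16 to 30 with a library left out. With summed copies the count was over 36 rows, because near-identical genes shared a row, and not over the 43 members tested. Members called higher numbered 1 with DESeq2, 1 without the filter and 0 to 2 with a library left out. Over all genes, calls with a library left out ran from 1599 to 2671 higher and from 1855 to 3521 lower, and limma on FPKM called 1783 higher. At 12 h against 6 h DESeq2 called 2 genes higher and 1 lower, and leaving out a library gave 0 to 1 in each direction. For anti-CD41 against IgG, DESeq2 called 3 members higher, with 623 genes higher and 444 lower, and leaving out a library gave 0 to 91 genes higher and 0 to 19 lower. The cause of these shifts was not tested.

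The replicate numbers do not pair the samples by the labels. Same-numbered libraries had correlated deviations of 0, 0.31 and -0.16 at 3 h and 0 h, of 0.31, -0.05 and 0.21 at 12 h and 6 h, and of 0.17, 0.30 and 0.08 in the antibody groups. There, each anti-CD41 library matched the IgG library of its own number best. With the replicate number as a block, 27 members were called lower at 3 h, with Ugt1a9 (adjusted p = 0.0395) in place of Gstm4 (0.0551), and 2 higher, Mgst2 (1.10, adjusted p = 0.0376) and Sult2b1 (1.35, 0.0336). The block also gave 295 genes higher and 89 lower with anti-CD41, with 0 members called there. No change reversed its direction among called members. Low counts limit the precision of the scarcer members, several of which stood near 1 CPM.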
